A study of Mus musculus with 6 samples.

Results

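The genes described here are 5 enzymes of proline and hydroxyproline metabolism, L3hypdh (listed in the deposited tables under its older symbol 2810055F11Rik), Prodh, Pycr1, Aldh4a1 and Aldh18a1, out of 23038 genes listed. They were measured by mRNA sequencing in NSC-34 cells, a mouse hybrid line that was derived from a neuroblastoma and embryonic spinal motor neurons. Cells received control siRNA (siNC, 3 libraries) or siRNA against Qk (siQk, 3 libraries), the gene that encodes the Quaking RNA-binding proteins, and were collected 3 days after transfection. The question is whether transcript levels differ once Quaking is reduced. The siQk group used 3 different siRNAs, and the labels do not say which library received which. NSC-34 is a single immortalised line grown in serum medium, without any genetic change between the groups, so both groups share its background.

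L3hypdh was chosen by its lower level in this same contrast, so its values are given as a description, without a test. The other 4 enzymes were selected for their place in the pathway and could be tested. All 5 passed the filter on low counts, which kept 12665 genes. The labelled cell type was checked against 14 markers of motor neurons and neuroblastoma, of which 11 were above 1 RPKM (reads per kilobase of exon, scaled to the library's total reads) in all 6 libraries, led by Prph, Tubb3 and Hand2. Mnx1, Chat and Stmn2, which mark motor neurons or mature neurons, were under 1 RPKM in every library. The summed marker level ran from 1019 to 1742 RPKM in siNC and from 1045 to 1447 RPKM in siQk, most of it from Prph and Tubb3. Single markers could differ more, as Isl1 measured 4.83, 4.75 and 4.80 RPKM in siNC and 9.63, 7.80 and 8.33 RPKM in siQk, without overlap, and the very low Chat did not overlap either (0.0297 to 0.0777 and 0.0997 to 0.141 RPKM). The summed levels of markers of other cells were 1.88 to 3.77 RPKM for glia, with Aqp4 at 0, and 3.20 to 5.65 RPKM for fibroblasts, with Lum at 0. For blood cells the sum was 0.347 to 1.02 RPKM, with Hbb-b1 at 0, and for liver and kidney it was 1.14 to 2.58 RPKM, most of it from Hoga1. Library totals ran from 43000503 to 53565950 counts. In a principal component analysis siQk replicate 2 stood apart on the first component (41.2% of the variance) and siNC replicate 3 on the second (28.9%).

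Proline is made from glutamate. Aldh18a1 (pyrroline-5-carboxylate synthase) turns glutamate into the precursor that becomes pyrroline-5-carboxylate, and Pycr1, a mitochondrial reductase, turns pyrroline-5-carboxylate into proline. Breakdown runs the other way in mitochondria. Prodh (proline dehydrogenase) oxidises proline to pyrroline-5-carboxylate, and Aldh4a1 oxidises that intermediate to glutamate. L3hypdh stands on a side branch. It is the dehydratase that removes water from trans-3-hydroxyproline, a modified residue of collagens, giving a product that can be reduced back to proline. Quaking proteins bind RNA at the Quaking element ACUAAY (Y for C or U) and act on splicing, transport, stability and translation, and they are best known in the brain for myelin formation.

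The position of L3hypdh (Entrez 67217) in GENCODE M21 on GRCm38 is chr12:72073428-72085439, on the minus strand. Its protein-coding transcript has 5 exons and 1831 bases, encodes 354 codons, and holds neither ACTAAC nor ACTAAT, the DNA forms of the Quaking element, on its own strand. The annotation holds 2 other transcripts, a retained-intron transcript and a non-coding processed transcript, that carry sequence lying in introns of the coding one. A stretch from each is shown because each holds 1 Quaking element, in capitals. The processed transcript extends exon 1 by 118 bases (chr12:72084531-72084648), and the retained-intron transcript keeps the 82 bases of intron 3 (chr12:72077282-72077363). The retained-intron transcript then runs through the next exon and ends inside the last intron, a part that was not searched for the element. Both stretches are written 5′ to 3′ on the minus strand.
L3hypdh exon 1 extension: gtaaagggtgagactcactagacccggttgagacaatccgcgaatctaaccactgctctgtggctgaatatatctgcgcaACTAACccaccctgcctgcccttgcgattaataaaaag
L3hypdh intron 3: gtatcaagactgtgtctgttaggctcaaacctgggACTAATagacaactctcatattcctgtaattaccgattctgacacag

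The element begins at base 81 of the exon 1 extension and at base 36 of intron 3. Placed into the coding transcript and read in its frame, the exon 1 extension meets a stop codon 9 bases into it, which leaves 172 codons of 354. The annotation holds no such combination, since the processed transcript begins 421 bases into exon 1 and is annotated as non-coding. Retaining intron 3 meets a stop 3 bases past the intron, in exon 4, which leaves 295 codons. Of all windows of the same length in GENCODE retained-intron transcripts, 2.75% of the 282590 windows of 118 bases and 1.89% of the 411519 windows of 82 bases held either motif. These windows also covered exons, and both L3hypdh stretches were shown because they hold the element, so the shares are no test of enrichment. A match to 6 letters is a description and shows neither binding nor inclusion. The tables hold 1 level per gene, so neither stretch was measured here, and the exons behind the listed length of 2435 bases are not given in the sources used here. The map of transcripts places both stretches.

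**Figure D1:**
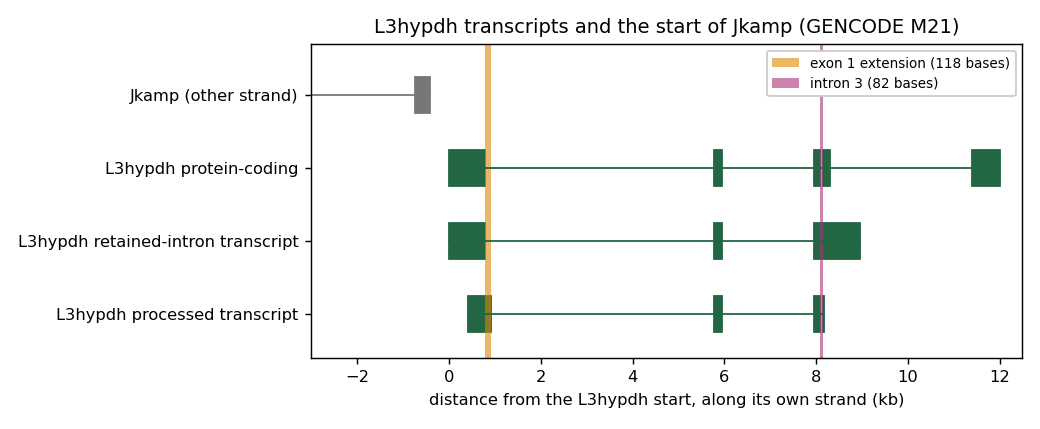
L3hypdh transcripts of GENCODE M21 (green boxes, exons) and the protein-coding transcript of the divergent neighbour Jkamp (grey), against distance from the L3hypdh start along its own strand in kb. The orange band marks the 118-base exon 1 extension, present only in the processed transcript, and the purple band marks the 82-base intron 3, kept only in the retained-intron transcript.

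L3hypdh had 594, 318 and 408 counts in the siNC libraries and 132, 161 and 113 counts in the siQk libraries. Its levels were 4.79, 2.76 and 3.90 RPKM in siNC replicates 1 to 3 and 1.19, 1.23 and 1.01 RPKM in siQk replicates 1 to 3. Every siQk library was below every siNC library, and the lowest siNC level still exceeded the highest siQk level. The siNC mean was 3.81 ± 1.02 RPKM (SD, n = 3). The siQk mean, 1.14 ± 0.121 RPKM (SD, n = 3), was 30.0% of it. The log2 fold change of siQk over siNC was -1.77 (SE 0.26). The relative spread was 26.7% of the mean in siNC and 10.6% in siQk. Counting alone gives a coefficient of variation of 9.41% at 113 counts and 4.10% at 594 counts, so the siNC libraries differed by more than counting error and the siQk libraries by about as much as it.

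Qk, the targeted gene (Entrez 19317, chr17:10202601-10319854, minus strand), measured 9.67, 8.18 and 14.9 RPKM in siNC and 1.39, 1.71 and 1.10 RPKM in siQk. All 3 siQk libraries were below all siNC libraries, with a mean at 12.8% of the control mean and a log2 fold change of -3.00 (SE 0.34). In the siQk group L3hypdh and Qk ranked the libraries alike, with replicate 2 highest and replicate 3 lowest. Within siNC they did not, since L3hypdh was highest in replicate 1 and Qk in replicate 3. With 3 libraries a group these orders are a description.

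Since every siQk library was below every siNC library, leaving out 1 library could change the size of the L3hypdh difference but not its direction. The log2 fold change of L3hypdh was between -1.97, without siNC replicate 2, and -1.58, without siNC replicate 1, when each library was left out in turn. Without siQk replicate 2, which stood apart in the principal components, the remaining siQk libraries, at 1.19 and 1.01 RPKM, were still below every siNC library. The values with each library left out are plotted for all 5 enzymes.

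**Figure D2:**
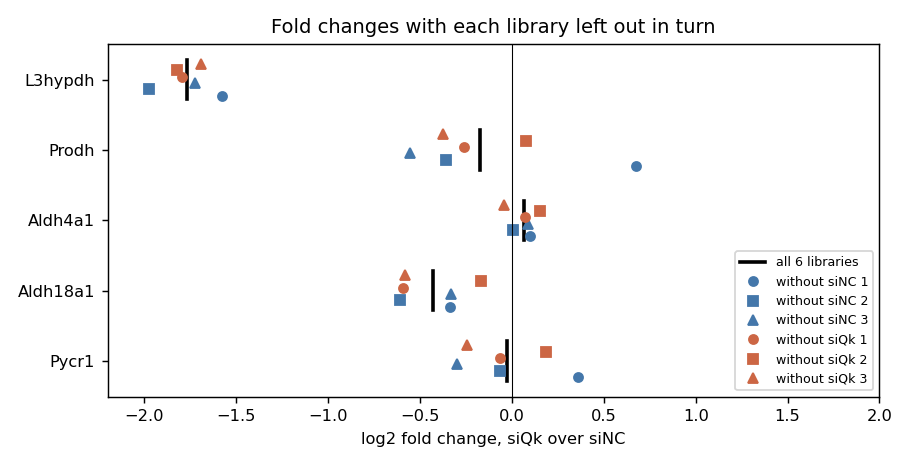
Log2 fold change (siQk over siNC, x axis) of the 5 enzymes with all 6 libraries (black bars) and with each library left out (circles, squares and triangles for replicates 1, 2 and 3, blue for siNC and orange for siQk). L3hypdh runs from -1.97 to -1.58, while Prodh runs from -0.56 to 0.67 and Pycr1 from -0.30 to 0.36, on both sides of 0.

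The start of L3hypdh lies 149 bases from that of Jkamp, a gene on the other strand that encodes a membrane protein binding the kinase JNK. Jkamp (Entrez 104771) measured 41.6, 39.8 and 42.1 RPKM in siNC and 41.1, 41.4 and 41.8 RPKM in siQk. The groups overlapped and all 6 libraries lay close together, with means of 41.2 ± 1.19 RPKM (SD, n = 3) and 41.4 ± 0.386 RPKM (SD, n = 3). Jkamp differed by a log2 fold change of -0.02 (SE 0.05), and the edgeR quasi-likelihood test gave an adjusted p of 1.0. In GENCODE, 4.50% of the exon bases of Jkamp lie opposite exons of Ccdc175, and the library kit as named keeps no strand. The level of Jkamp was 8.68, 14.4 and 10.8 times that of L3hypdh in the siNC libraries and 34.5, 33.5 and 41.6 times in the siQk libraries, on the RPKM scale. On the other side, Gpr135, an orphan receptor gene whose span meets the end of the RefSeq L3hypdh model, had means of 1.64 ± 0.333 and 1.57 ± 0.365 RPKM (SD, n = 3 each) for siNC and siQk and a log2 fold change of -0.08 (SE 0.24). Gm3225, between Gpr135 and the GENCODE end of L3hypdh, and Gm19135, inside the span of Jkamp, are not among the symbols analysed here.

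A stretch just before the L3hypdh start is shown because it lies between the divergent GENCODE starts of L3hypdh and Jkamp. The RefSeq start of Jkamp falls inside it. It is chr12:72085440-72085563 of RefSeq on GRCm38.p6, 124 bases, written 5′ to 3′ on the minus strand, with each CCGCCC in capitals. CCGCCC is the reverse complement of GGGCGG, the GC box, and these letters were chosen after the sequence was seen.
L3hypdh upstream stretch: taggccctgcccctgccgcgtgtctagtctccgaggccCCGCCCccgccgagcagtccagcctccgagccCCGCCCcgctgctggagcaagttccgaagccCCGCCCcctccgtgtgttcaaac

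The stretch holds 3 GC boxes, counted on both strands, and 72.6% of its bases are G or C. Over the same stretch of 32851 RefSeq promoters, 13.3% held at least 1 GC box, and the median share of G and C was 50.8%. No measurement here bears on binding at it.

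Of the 4 enzymes selected for their place in the pathway, none was called changed at p under 0.01 and an adjusted p under 0.1 with edgeR. Among all 12665 genes 1 was called, Qk, which is 0.0079%. That count was 0 without siNC replicate 1, 5 with the edgeR exact test and 19 with DESeq2, and none of the 4 enzymes was called in any of these. None of the 4 reached an unadjusted p under 0.05, against 366 of all genes (2.89%), and in none did the groups fail to overlap, against 1079 of all genes (8.52%). L3hypdh did not overlap, with siQk lower, as did 515 of all genes (4.07%), and nothing is read from that since the gene was selected on this contrast.

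Aldh18a1 (Entrez 56454, chr19:40550257-40588463, minus strand) was the most abundant of the 5, at 120, 81.1 and 116 RPKM in siNC and 97.5, 47.7 and 95.1 RPKM in siQk. The groups overlapped because siNC replicate 2 was below siQk replicates 1 and 3, and siQk replicate 2 was the lowest of all. The means were 106 ± 21.5 and 80.1 ± 28.1 RPKM (SD, n = 3 each). The log2 fold change by the fit across genes was -0.43, with an SE of 0.40 and a 95% interval of -1.53 to 0.68 from the spread of its own libraries. The edgeR quasi-likelihood test gave an adjusted p of 1.0 and the RPKM values an exact two-sided permutation p of 0.3, where the smallest possible with 20 arrangements is 0.1. Without siQk replicate 2 the log2 fold change was -0.17.

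Pycr1 (Entrez 209027, chr11:120635712-120643769, minus strand) measured 26.4, 17.5 and 10.0 RPKM in siNC and 18.7, 12.1 and 22.7 RPKM in siQk. The highest and the lowest library were both siNC, and all 3 siQk levels lay between them. The means were 18.0 ± 8.21 and 17.8 ± 5.33 RPKM (SD, n = 3 each), with a log2 fold change of -0.03 (SE 0.47, 95% interval -1.34 to 1.28). The adjusted p was 1.0 by the edgeR quasi-likelihood test. Its direction turned on single libraries, since the log2 fold change was -0.30 with siNC replicate 3 left out but 0.36 with siNC replicate 1 left out and 0.19 with siQk replicate 2 left out.

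Prodh (Entrez 19125, chr16:18060357-18090203, minus strand) was the most variable of the 5, at 12.5, 4.94 and 2.46 RPKM in siNC and 6.69, 3.71 and 7.48 RPKM in siQk. The control libraries alone spanned 5.10-fold, and all 3 siQk levels fell inside that span. The means were 6.64 ± 5.25 and 5.96 ± 1.99 RPKM (SD, n = 3 each). The log2 fold change by the fit across genes was -0.17, with an SE of 0.74 and a 95% interval of -2.21 to 1.87 from the spread of its own libraries. The edgeR quasi-likelihood test gave an adjusted p of 1.0 and the RPKM values an exact two-sided permutation p of 0.9. Leaving out siNC replicate 3 gave -0.56, leaving out siNC replicate 1 gave 0.67 and leaving out siQk replicate 2 gave 0.08. The spread of Prodh within groups was larger than that of 98.6% of the genes tested, against 63.4% for L3hypdh, 91.9% for Pycr1, 86.5% for Aldh18a1 and 18.0% for Aldh4a1. A difference as large as that of L3hypdh lies inside the 95% interval of Prodh and outside those of Pycr1, Aldh18a1 and Aldh4a1.

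Aldh4a1 (Entrez 212647, chr4:139622866-139649690, plus strand), the next enzyme after Prodh, was the steadiest, at 8.83, 7.97 and 8.35 RPKM in siNC and 8.86, 7.79 and 10.1 RPKM in siQk. The highest library was 1.30 times the lowest, and the groups overlapped. The means were 8.38 ± 0.434 and 8.93 ± 1.18 RPKM (SD, n = 3 each), with a log2 fold change of 0.06 (SE 0.13, 95% interval -0.29 to 0.42). The adjusted p was 1.0 by the edgeR quasi-likelihood test. Without siQk replicate 3, its highest library, the log2 fold change was -0.05. In GENCODE, 32.5% of the Aldh4a1 exon bases are also exon bases of Gm21969 on the same strand, so its level is uncertain to the extent that counting split reads between them.

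**Figure D3:**
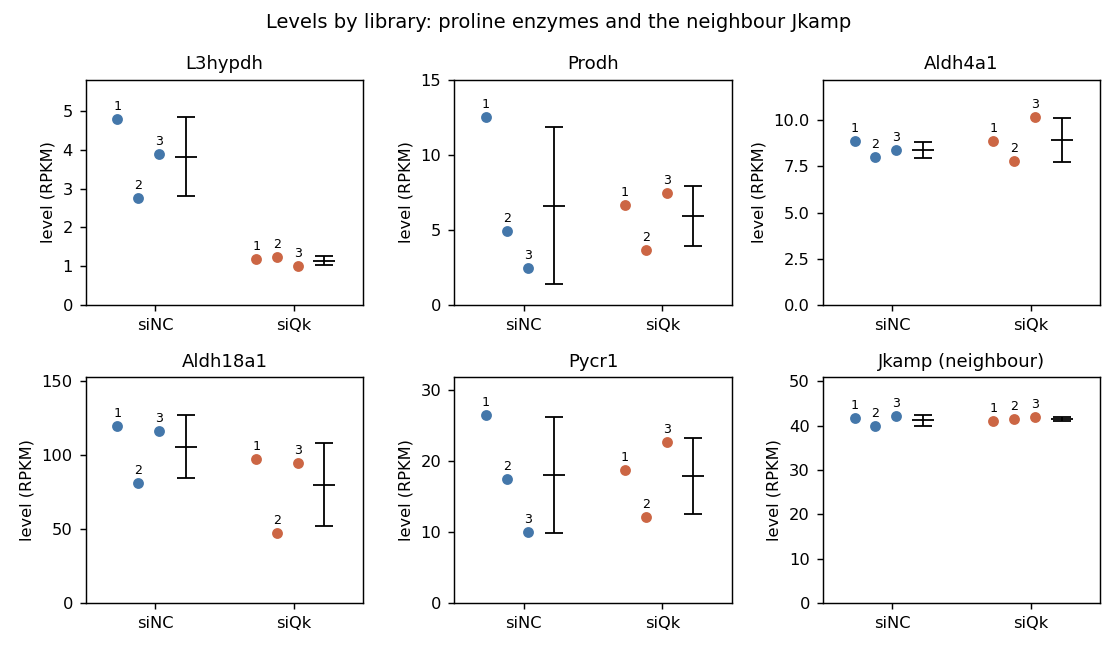
Levels in RPKM (y axes from 0) of the 5 enzymes and of Jkamp in each library, labelled by replicate number, with the group mean and SD (n = 3) as a bar beside the points. In L3hypdh all 3 siQk libraries, at 1.01 to 1.23 RPKM, sit below all siNC libraries, at 2.76 to 4.79 RPKM, and in each other panel the groups overlap.

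The enzymes kept one order of levels, on the RPKM scale, in both groups. It ran from Aldh18a1 through Pycr1, Aldh4a1 and Prodh to L3hypdh. In siNC the ranges of Aldh4a1 and Prodh overlapped, as did those of Prodh and L3hypdh, so those neighbours did not differ beyond their spread. In siQk no neighbours overlapped. The level of Aldh18a1 was 4.54, 4.64 and 11.6 times that of Pycr1 in the siNC libraries and 5.20, 3.93 and 4.19 times in the siQk libraries. The high ratio of siNC replicate 3 went with its low Pycr1 level. Prodh and Pycr1, which act in opposite directions on the same pair of metabolites, ranked the 6 libraries identically, from siNC replicate 1 down to siNC replicate 3, a likeness seen only after their values were examined. Their ratio (Pycr1 over Prodh) was 2.11, 3.54 and 4.09 in siNC and 2.80, 3.27 and 3.03 in siQk. The points share library and depth, and siNC replicate 3 and siQk replicate 2, the lowest libraries of both genes, are those that stood apart in the principal components. The part of that in the likeness was not tested.

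A list of 52 genes that make, break down, carry, release or modify proline was compared in the same way. It was written with earlier results of these data known. Of its genes 43 were tested and 9 were too low, among them Prodh2 and Crym, which had no count in any library. Prodh2 acts on 4-hydroxyproline and Crym can reduce the product of L3hypdh. Of the 43, 23 were lower and 20 higher in siQk, L3hypdh included, and their median log2 fold change was -0.03, against 0.0034 over all 12665 genes. Without L3hypdh, none of the other 42 was called by the edgeR quasi-likelihood test, to which the word called refers for each role below. Without the 5 enzymes above, 19 were lower and 19 higher, with a median of -0.01. L3hypdh, which was selected on this contrast, was lower in every siQk library. Of the other 42, the groups did not overlap in 2 (4.76%), Oat and Gpt, which were higher in every siQk library, against 8.52% of all genes. An unadjusted p under 0.05 was reached by 2 of the 42 (4.76%), Oat and Glul, against 2.89% of all genes. Among the 43 genes tested, L3hypdh had the largest change in either direction, in the contrast on which it was selected. The changes are plotted by role.

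**Figure D4:**
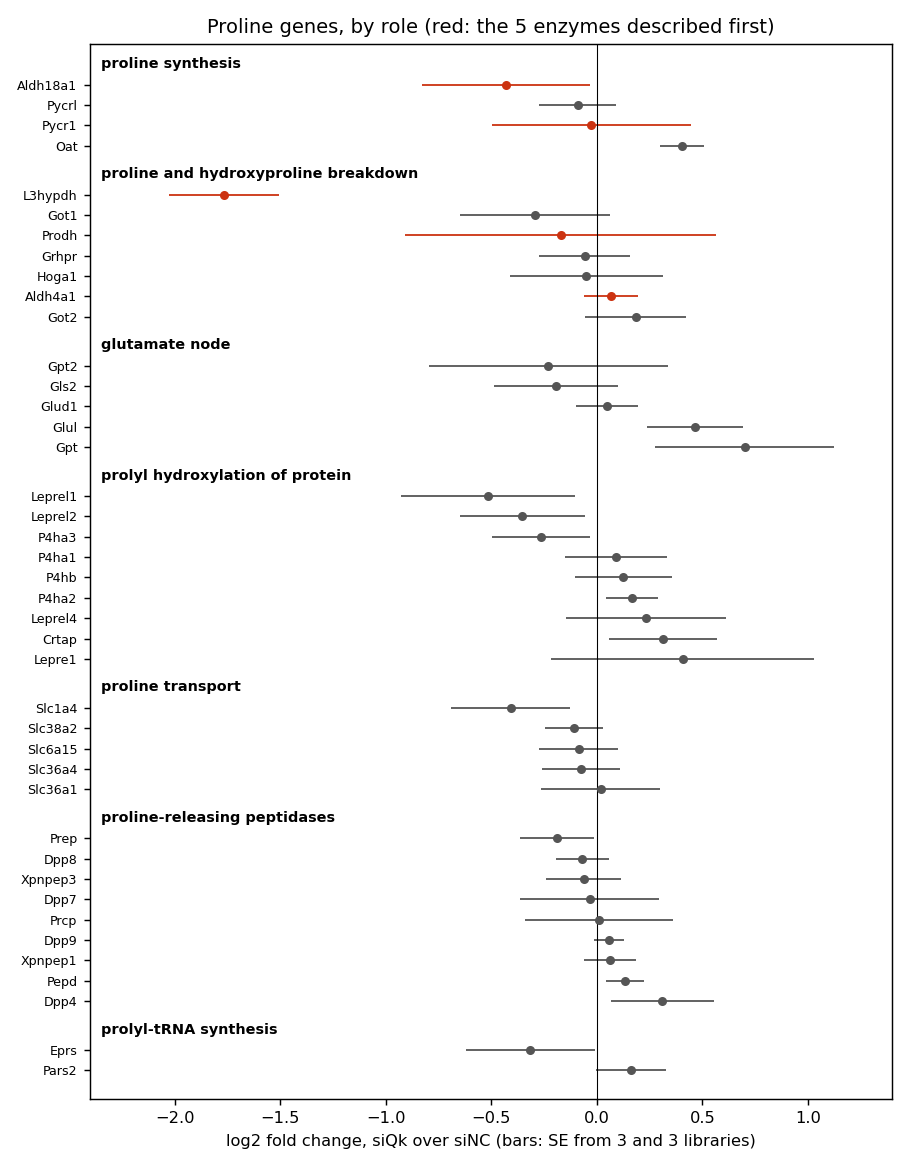
Log2 fold change (siQk over siNC, x axis, points) with its SE (bars, from 3 and 3 libraries) of 41 of the 43 proline genes tested, grouped by role, with the 5 enzymes in red. L3hypdh lies at -1.77, and the other 40 lie between -0.52 and 0.70.

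Among the 5 synthesis genes, 3 were lower and 2 higher and none was called. Oat, which makes pyrroline-5-carboxylate from ornithine, measured 81.3, 83.3 and 72.3 RPKM in siNC and 99.2, 122 and 97.4 RPKM in siQk. All siQk libraries were above all siNC libraries, with means of 79.0 ± 5.86 and 106 ± 13.6 RPKM (SD, n = 3 each) and a log2 fold change of 0.40 (SE 0.10). The unadjusted p was 0.024 and the adjusted p 1.0 by the edgeR quasi-likelihood test, and the exact two-sided permutation p was 0.1, the smallest possible. Without siQk replicate 2 the log2 fold change was 0.29.

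Of the 6 breakdown genes tested beside L3hypdh, 4 were lower and 2 higher and none was called. Got1 and Got2, the cytosolic and mitochondrial aspartate aminotransferases, which also act on an intermediate of 4-hydroxyproline breakdown, were the most abundant. Got1 measured 133, 83.8 and 79.7 RPKM in siNC and 93.5, 54.5 and 97.2 RPKM in siQk, with a log2 fold change of -0.29 (SE 0.36). Its groups overlapped, and the log2 fold change was -0.03 without siNC replicate 1 and -0.07 without siQk replicate 2. Got2 measured 201, 122 and 180 RPKM in siNC and 207, 188 and 188 RPKM in siQk, with a log2 fold change of 0.18 (SE 0.24) that was -0.02 without siNC replicate 2, its lowest library, and 0.32 without siNC replicate 1. Of its 75-base windows, 19.3% are shared with other transcripts, its pseudogene Got2-ps1 among them. Grhpr, which reduces glyoxylate, the end product of 4-hydroxyproline, had 33.4 ± 5.58 and 32.7 ± 7.25 RPKM (SD, n = 3 each), with a log2 fold change of -0.06 that was -0.25 once siQk replicate 2 was left out and 0.08 once siNC replicate 1 was.

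Of the 6 genes around glutamate, from which proline is made, 3 were lower and 3 higher and none was called. Glul (glutamine synthetase) measured 31.9, 24.5 and 21.2 RPKM in siNC and 30.6, 44.8 and 33.6 RPKM in siQk. Its groups overlapped between siNC replicate 1 and siQk replicate 1, and it differed by 0.47 on the log2 scale (SE 0.23). The edgeR quasi-likelihood test gave Glul an unadjusted p of 0.047 and an adjusted p of 1.0, and without siQk replicate 2 the log2 fold change was 0.29. Gpt, the cytosolic alanine aminotransferase, measured 1.13, 1.10 and 0.755 RPKM in siNC and 1.15, 2.65 and 1.14 RPKM in siQk. Its groups did not overlap by a narrow margin, with a log2 fold change of 0.70 (SE 0.43) that was 0.18 without siQk replicate 2. Glud1 (glutamate dehydrogenase) had 33.4 ± 2.01 and 35.1 ± 6.33 RPKM in siNC and siQk (SD, n = 3 each), and its log2 fold change was 0.05 with all libraries and -0.11 without siQk replicate 2.

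Of the 9 genes that hydroxylate prolines in proteins, either at the 4 position or, as in the substrate of L3hypdh, at the 3 position, 3 were lower and 6 higher and none was called. P4hb, the beta subunit of prolyl 4-hydroxylase, measured 203, 203 and 185 RPKM in siNC and 187, 294 and 175 RPKM in siQk. Its log2 fold change was 0.13 (SE 0.23) with all libraries and -0.15 without siQk replicate 2, the highest. Crtap, the partner protein of the prolyl 3-hydroxylase complex, measured 35.5, 33.5 and 32.4 RPKM in siNC and 35.0, 59.2 and 34.2 RPKM in siQk. It too was high in siQk replicate 2 alone, with a log2 fold change of 0.31 (SE 0.26) that was 0.01 without that library. Leprel2, a prolyl 3-hydroxylase now named P3h3, had 23.9 ± 6.75 and 18.9 ± 3.97 RPKM (SD, n = 3 each), and P4ha2, an alpha subunit of prolyl 4-hydroxylase, had 32.6 ± 1.32 and 37.2 ± 5.74 RPKM. The log2 fold change of P4ha2 was 0.17 with all libraries and 0.04 without siQk replicate 2.

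Of the 5 transport genes tested, 4 were lower and 1 higher and none was called. Slc38a2, a carrier of small neutral amino acids, measured 105 ± 12.7 and 99.5 ± 7.48 RPKM in siNC and siQk (SD, n = 3 each), with a log2 fold change of -0.11 that was 0.02 without siNC replicate 3. Slc1a4, a neutral amino acid exchanger, measured 54.6, 46.7 and 52.7 RPKM in siNC and 48.5, 26.7 and 42.9 RPKM in siQk, where replicate 2 was lowest. Its groups overlapped, and its log2 fold change was -0.41 (SE 0.28) with all libraries and -0.19 without siQk replicate 2. Slc36a1, a proton-coupled amino acid carrier, had 35.1 ± 12.5 and 36.0 ± 3.01 RPKM, with a log2 fold change of 0.02 that ran from -0.17 without siNC replicate 1 to 0.31 without siNC replicate 2.

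Of the 9 proline-releasing peptidases tested, 4 were lower and 5 higher, and of the 2 prolyl-tRNA synthetases 1 was lower and 1 higher, with none called. Prep, which cuts small peptides after proline, was the most abundant peptidase at 240 ± 37.7 and 215 ± 23.8 RPKM in siNC and siQk (SD, n = 3 each), with a log2 fold change of -0.19 that was -0.03 without siNC replicate 3. Pepd, which splits dipeptides that end in proline or hydroxyproline, had 43.3 ± 1.87 and 48.3 ± 5.30 RPKM, and Xpnpep1 85.1 ± 5.25 and 90.5 ± 13.6 RPKM. The log2 fold change without siQk replicate 2 was -0.07 for Xpnpep1, against 0.06 with all libraries, and 0.05 for Pepd, against 0.13. Dpp4 was low, at 0.189 ± 0.0394 and 0.238 ± 0.0495 RPKM. Eprs, which charges tRNA with glutamate and with proline, measured 239, 188 and 323 RPKM in siNC and 238, 162 and 217 RPKM in siQk, with a log2 fold change of -0.32 (SE 0.31) that was -0.05 without siNC replicate 3. Its mitochondrial counterpart Pars2 had 0.885 ± 0.0702 and 1.01 ± 0.194 RPKM.

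The genes whose profile over the 6 libraries was nearest to that of L3hypdh were found by the root mean square difference in log2 CPM (counts scaled to the library's total), with each gene set relative to its own siNC mean. On that scale L3hypdh stood at 0.35, -0.47 and 0.12 in siNC and at -1.65, -1.61 and -1.88 in siQk. The nearest of the 12664 others was Daam2 (difference 0.341), a gene of Wnt and formin signalling, followed by Tgm4 (0.404), Snap23 (0.431), Avil (0.503) and Kirrel (0.573). The median difference over all genes was 1.27, and Qk, whose siQk levels lay further below its own siNC mean, ranked 272 at 0.922. The measure uses the contrast on which L3hypdh was selected, so the likeness is a description.

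Daam2 measured 6.50, 4.42 and 6.03 RPKM in siNC and 1.94, 1.79 and 2.67 RPKM in siQk, with the groups apart and siNC replicate 2 the lowest control, as in L3hypdh. Snap23, a membrane fusion protein, measured 17.8, 15.3 and 20.7 RPKM in siNC and 6.40, 11.2 and 5.80 RPKM in siQk, with siQk replicate 2 the highest of its group. Tgm4, a transglutaminase, measured 2.66, 1.69 and 2.62 RPKM in siNC and 1.01, 1.19 and 0.902 RPKM in siQk. In Tgm4, 25.0% of the exon bases of Tgm4 are shared with Gm49323 or lie opposite Zdhhc3, so its level is uncertain. Avil was lower, at 1.26, 0.460 and 1.23 RPKM in siNC and 0.564, 0.302 and 0.308 RPKM in siQk, and its groups overlapped. Kirrel was the lowest, at 0.210, 0.156 and 0.259 RPKM in siNC and 0.112, 0.0775 and 0.113 RPKM in siQk. The groups did not overlap in Daam2, Snap23, Tgm4 and Kirrel, against 8.52% of all genes, and nothing is read from that since these genes were picked for their likeness to L3hypdh.

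**Figure D5:**
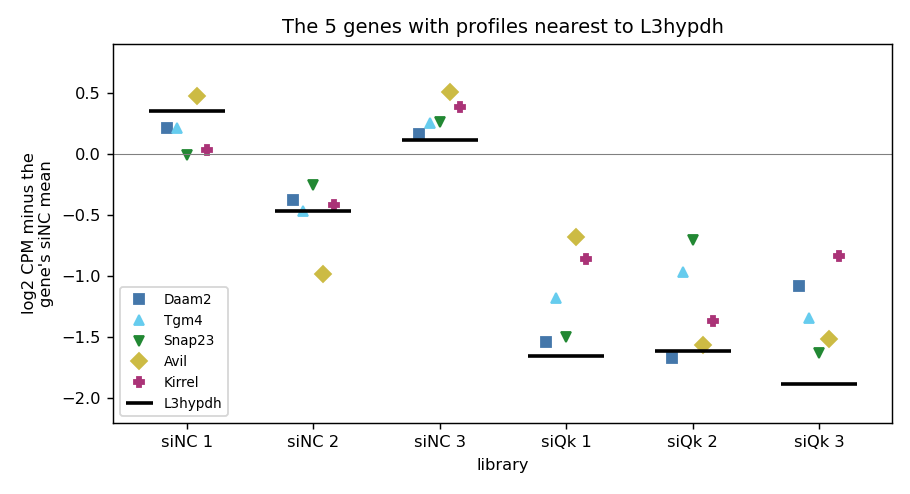
Log2 CPM of the 5 genes nearest to L3hypdh in each library, relative to each gene's own siNC mean (y axis), with L3hypdh as black bars. L3hypdh lies between -0.47 and 0.35 in siNC and between -1.88 and -1.61 in siQk, and Daam2 follows it most closely.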

How the data were processed

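mRNA was measured in 6 NSC-34 libraries, 3 siNC and 3 siQk, grouped by the treatment in their labels. The authors selected poly-A RNA, used a TruSeq version 2 kit that keeps no strand, sequenced pairs of 75-base reads, aligned with OLego and counted with Quantas. The submitters' processing notes give mm10, as do the study's methods, which add an NCBI build number that does not belong to mm10. The deposited expected counts (21.9% to 22.9% of them not whole) were rounded for testing. Dividing expected counts by the deposited exon length in bases and by the library's total gave back the deposited RPKM values exactly, so these carry no other scaling.

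Counts were scaled by TMM (factors 0.956 to 1.02), genes were kept where the average log2 CPM that edgeR computes over the libraries (aveLogCPM) was above 0, and siQk was compared with siNC with edgeR 4.0.16 (R 4.3.3), using its quasi-likelihood F test without other terms. Calls needed p under 0.01 and, after Benjamini-Hochberg adjustment over all 12665 genes, an adjusted p under 0.1, as in the study. SEs come from TMM-scaled log2 CPM (prior count 2), and 95% intervals use 4 degrees of freedom. Permutation tests were exact and two-sided. Replicates are separate cultures per the study's methods. Counting precision follows from 43000503 to 53565950 counts per library, and PCR copies were not separable.

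The members and lists were chosen with earlier results of these data known. Named genes were the 5 enzymes, Qk, per role the 3 highest genes and the 2 with the smallest p, 2 neighbours on each side and the 5 nearest profiles. Positions are from GENCODE M21, matched by Entrez identifier. Upstream sequence is RefSeq GRCm38.p6. The alternatives, 14 for each result, were other scalings, filters and tests (DESeq2 1.42.0 among them), a replicate block and each library left out. Same-numbered libraries correlated at 0.21, 0.02 and -0.17 over genes, so the numbers were not taken as pairs, and the labels do not settle whether they are. The scripts were tested on simulated data. Exon inclusion and isoforms were not analysed here, and 2 genes of the proline list that enter its counts are not reported here by name.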

Additional observations from a re-analysis of the deposited data

How the results depend on the processing

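L3hypdh was lower in siQk under all 14 alternatives, from -1.97 to -1.58 in log2 with each library left out and from -1.78 to -1.73 otherwise. Its groups did not overlap, so that direction was set beforehand and only the sizes are read. Aldh18a1 was also lower in all 14, from -0.61 to -0.17 with each library left out. Prodh ranged from -0.56 to 0.67 with each library left out and turned positive without siNC replicate 1 (0.67), without siQk replicate 2 (0.078) and with the replicate block (0.037). Pycr1 ranged from -0.30 to 0.36 and turned positive without siNC replicate 1 (0.36), without siQk replicate 2 (0.19) and with the replicate block (0.011). Aldh4a1 ranged from -0.046 to 0.15 and was negative without siQk replicate 3 (-0.046). None of these 4 enzymes was called under any alternative, with adjusted p values from 0.895 to 1.0 by edgeR or DESeq2. The median of the proline list ran from -0.050 to 0.097 with each library left out and moved most without siNC replicate 1 (0.097). The count of genes called, 1 with all libraries (Qk), was 0 without siNC replicate 1 and otherwise 1 with a library left out (0 to 1). It was 5 with the edgeR exact test and 19 with DESeq2. An unadjusted p under 0.05 was reached by 366 genes with all libraries, by 538 without siNC replicate 1 and by 292 (without siQk replicate 3) to 562 (without siNC replicate 3) over all such fits. The cause of these differences was not tested. The replicate block left 1 gene called and changed no call, but gave Aldh18a1 an unadjusted p of 0.014 by edgeR (0.154 without the block, adjusted p 1.0 in both). The labels do not say whether same-numbered libraries belong together, so the block is no test of pairing. With 3 libraries a group, the spread between libraries exceeded counting error for the 5 enzymes in siNC, while for L3hypdh in siQk they were close.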
